A study of Mus musculus with 17 samples.

Results

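Sh3d19, Tceanc2 and Tmem87a were followed through every probe set of the array that the platform annotation gives to 1 of these symbols alone, 7 of 45101 probe sets on 17 arrays, for 3 of 18193 named genes. The genes were chosen by their low signal on EB and ES, the arrays of ovariectomised mice treated with estradiol, and so their values on those arrays are given as a description. Sh3d19 has 4 probe sets, Tceanc2 has 2 and Tmem87a has 1. RNA came from FACS-sorted mouse skeletal stem cells (mSSCs) and their progeny, the bone, cartilage and stromal progenitors (mBCSPs), of female C57BL/6 mice.

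Sorted cells came from fracture callus of sham-operated mice (sham, 4 arrays), of ovariectomised mice (OVX, 2 arrays) and of ovariectomised mice given estradiol (OVX + E2, 2 arrays). Uninjured bone came from sham mice (3 arrays) and OVX mice (2 arrays). A further 2 callus arrays, OIB and OIS, carry labels that conflict on ovary surgery, and on 2 others, SI and BI, ovary surgery is not given; these were kept as groups of their own. Ovaries were removed at 8 weeks of age and bones were taken 7 days after fracture. The labels do not say whether arrays of a group came from separate mice or from pools, so p-values measure the spread between these arrays alone, which may be technical. In fits with terms for group and title form (below), that spread is how mSSC minus mBCSP varied over pairs of arrays, 7 without E2. Those fits hold no spread between replicate arrays of the same condition and population.

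Array titles are written in 3 forms. Form A holds SB and SS (sham), OB and OS (OVX) and EB and ES (OVX + E2), all callus. Form B holds SIB, SIS, OIB and OIS from callus and SUS, OUB and OUS from uninjured bone, of sham (SUS) and OVX mice. Form C holds SI and BI from callus and SU and BU from uninjured sham bone. SB, OB, EB, SIB, OIB, OUB, BI and BU are mBCSP arrays and the others are mSSC arrays. What the forms stand for is not stated, and the OVX + E2 arrays are all of form A.

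Sh3d19 encodes an adaptor protein with several SH3 domains, modules that hold proline-rich tails, and it binds ADAM metalloproteases, membrane enzymes that cut growth factor precursors from the cell surface. Tceanc2 encodes a nuclear protein with domains like those of the elongation factor TFIIS, which frees stalled RNA polymerase. Tmem87a encodes a membrane protein of the Golgi with a GOLD domain and a seven-pass core, linked to the return of proteins from endosomes to the Golgi. A probe set is a group of short oligonucleotides read together, and a gene may have several. Probe sequences were not available, so which transcripts each probe set matches was not examined.

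The promoters of the 3 genes are shown because estradiol acts through receptors that bind DNA at a paired motif, GGTCANNNTGACC. They are the 250 bases before the start of each gene in RefSeq (GRCm38.p6), written 5′ to 3′ on the gene's own strand, with the GC box GGGCGG or its complement in capitals.
Sh3d19, chr3:85970868-85971117, plus strand: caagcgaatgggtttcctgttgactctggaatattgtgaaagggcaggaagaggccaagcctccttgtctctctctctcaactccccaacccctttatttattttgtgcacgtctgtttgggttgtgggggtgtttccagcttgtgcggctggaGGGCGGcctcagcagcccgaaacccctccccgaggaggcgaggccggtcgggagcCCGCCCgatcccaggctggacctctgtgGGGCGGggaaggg
Tceanc2, chr4:107178367-107178616, minus strand: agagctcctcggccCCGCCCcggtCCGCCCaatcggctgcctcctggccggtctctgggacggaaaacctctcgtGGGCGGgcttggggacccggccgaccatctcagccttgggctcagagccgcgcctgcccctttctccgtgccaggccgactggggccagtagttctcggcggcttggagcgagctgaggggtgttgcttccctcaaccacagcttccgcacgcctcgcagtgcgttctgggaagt
Tmem87a, chr2:120404117-120404366, minus strand: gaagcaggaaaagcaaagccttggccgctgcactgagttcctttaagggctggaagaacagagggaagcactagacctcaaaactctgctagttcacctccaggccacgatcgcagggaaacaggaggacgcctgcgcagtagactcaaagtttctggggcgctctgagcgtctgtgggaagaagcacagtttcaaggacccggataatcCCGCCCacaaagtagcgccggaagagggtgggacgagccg

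Searched on both strands, none of the 3 windows held the paired motif, which 0.0639% of 32851 mouse promoters held, nor its single arm GGTCA, which 35.2% held. None held TGANTCA, the site of AP-1 factors, against 6.75% of promoters. The GC box occurred 3 times at Sh3d19, 3 times at Tceanc2 and 1 time at Tmem87a, and in 32.7% of all promoters. The missing letters say only that these windows lack them.

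Values below are log2 signals after quantile normalization between the 17 arrays, with a floor at the 20th percentile (5.95), under which probe sets have no order. A probe set entered the tests if at least 2 arrays had it at the 40th percentile (7.20) or higher, which left 33064. Of the 7 member probe sets 6 were tested, and 1431067_at of Tceanc2, which reached that level on 1 array, was not. Levels are compared within a probe set only, since probe sets differ in brightness.

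The labelled cells were checked by their markers. Over 8 skeletal lineage genes the mean level was 13.18 to 13.22 on the OVX + E2 arrays and 13.18 to 13.32 on the other form A arrays, but 8.43 to 13.02 on form C, lowest on SU (8.43) and BU (9.05). Ptprc, which encodes CD45 of blood cells that the sort leaves out, stood at 6.58 to 8.31 on the 4 form A arrays without E2, 8.80 to 10.62 on the OVX + E2 arrays, 9.61 to 14.74 on form B and 11.02 to 14.58 on form C. In sorted pools, fewer cells of a type and less RNA per cell cannot be told apart. Between arrays the Spearman correlation over probe sets was 0.786 to 0.975, and BI stood apart at 0.815 to 0.885 with the others.

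Sh3d19 was bright in callus of form A without E2. Probe set 1449084_s_at read 12.10 on SB, 11.77 on SS, 12.21 on OB and 12.13 on OS. On EB and ES it was at the floor, with deposited values of 5.04 and 4.62. The OVX + E2 arrays lay under the other 4 by a gap of at least 5.82, the widest of all 33064 probe sets for these arrays.

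The other Sh3d19 probe sets were lower on EB and ES too, by unequal amounts. Probe set 1418460_at read 6.26 on EB and 6.49 on ES, against 9.43 on SB, 9.33 on SS, 9.74 on OB and 9.76 on OS. Probe set 1418461_at read 6.41 and 6.65, against 8.22 to 9.14. Both were near the floor with E2 and did not overlap with the other form A arrays.

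Probe set 1427574_s_at differed in kind. It read 10.01 on EB and 9.82 on ES, against 10.91 on SB, 11.18 on SS, 11.12 on OB and 11.44 on OS. With E2 it thus stayed far above the floor and above every uninjured array (5.95 to 7.24), and also above the callus arrays OIB (9.41) and OIS (9.40). On those 2 arrays the other probe sets of Sh3d19 were high, with 1449084_s_at at 11.91 and 11.76.

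**Figure D1:**
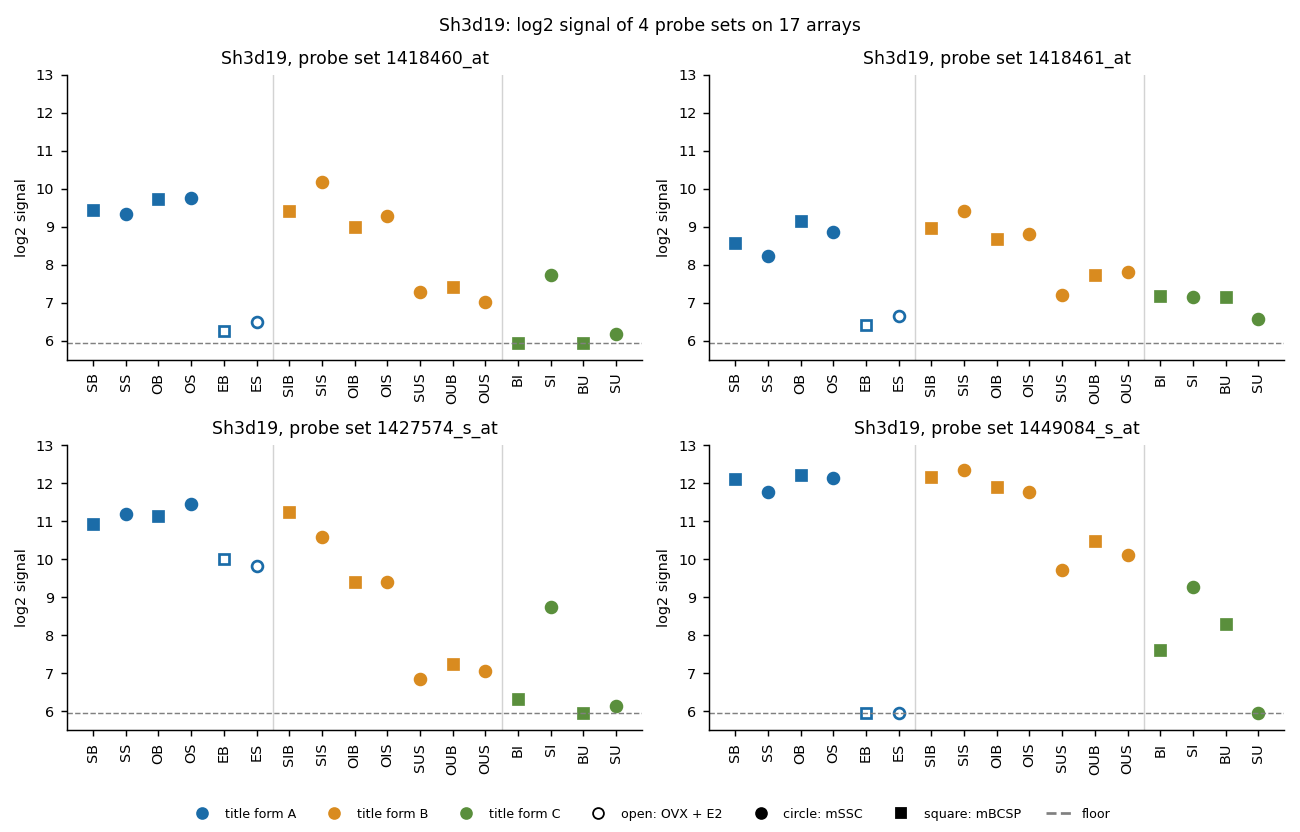
Log2 signal of the 4 Sh3d19 probe sets (panels) on each of the 17 arrays, ordered by title form (colour), with mSSC arrays as circles, mBCSP arrays as squares and OVX + E2 arrays open; the dashed line is the floor (5.95). On EB and ES 1449084_s_at lies at the floor while 1427574_s_at reads 10.01 and 9.82, and all 4 probe sets on BU and SU lie below the callus arrays of forms A and B without E2.

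In a fit of all 17 arrays, OVX + E2 minus OVX callus was -6.22 (SE 0.65) for 1449084_s_at, a lower bound of the difference in size since the E2 arrays were at the floor, and -7.31 without the floor. It was -3.37 (SE 0.45) for 1418460_at, -2.47 (SE 0.31) for 1418461_at and -1.37 (SE 0.57) for 1427574_s_at. Against sham callus, which shares the OVX + E2 arrays with the first contrast, the differences were -5.99, -3.00, -1.87 and -1.14. Thus all 4 probe sets had the same direction and sizes from -1.37 to -6.22 against OVX callus.

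Tceanc2 probe set 1418662_at read 6.61 on EB and 6.18 on ES, against 8.93 on SB, 9.10 on SS, 9.14 on OB and 9.02 on OS. The difference was -2.69 (SE 0.34) from OVX and -2.63 from sham callus. Its second probe set, 1431067_at, was at the floor on EB and ES and at 6.35 to 6.85 on the other 4, so both probe sets of the gene were lowest with E2 among the arrays of form A. The second was dim on every array, with 7.25 on OIS as its highest value.

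Tmem87a, with 1 probe set (1424454_at), read 7.86 on EB and 7.93 on ES. It read 9.10 on OB and 9.47 on OS, and 10.89 on SB and 10.44 on SS. OVX + E2 minus OVX callus was -1.39 (SE 0.30) and minus sham callus -2.77 (SE 0.30). The latter was -1.26 (SE 0.78) without the form term and -1.59 (SE 0.71) with form as a random block. Within form A the sham arrays were highest, the OVX arrays between and the OVX + E2 arrays lowest.

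**Figure D2:**
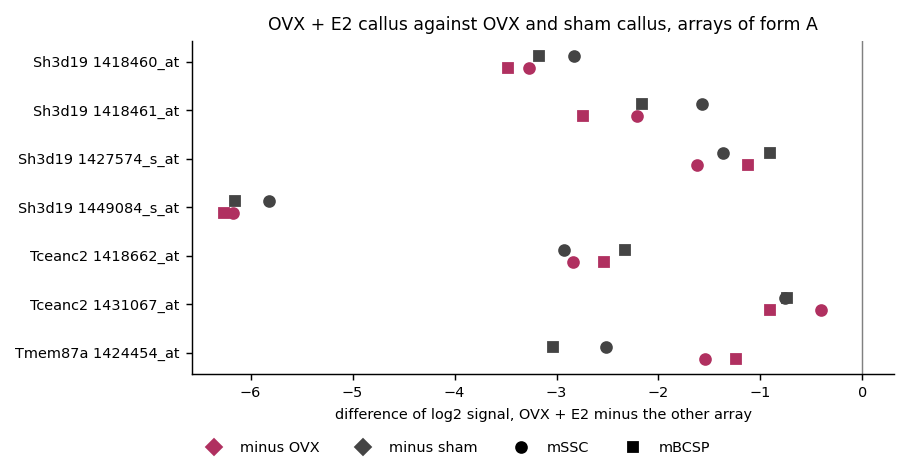
Difference of log2 signal between the OVX + E2 callus array and the OVX (red) or sham (grey) callus array of the same population and form A, for the 7 probe sets; circles are mSSCs and squares mBCSPs. All points lie below 0, from -6.26 for 1449084_s_at to -0.40 for 1431067_at, both read at the floor with E2 and therefore bounds.

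These contrasts chose the genes, so no test of them was read. Over all probe sets limma called 0.00605% between OVX + E2 and OVX callus (0.00302% lower) and 0.00605% between OVX + E2 and sham callus (0.00605% lower). The lower share against OVX callus is 1449084_s_at alone, and that against sham callus is 1449084_s_at and Tmem87a alone. These shares are therefore no background separate from the members. Both OVX + E2 arrays lay under the other 4 arrays of form A for 6.88% of probe sets, among them all 6 tested members, whose gaps ranked 1, 3, 5, 8, 15 and 31.

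Over all 17 arrays no tested member had both OVX + E2 arrays below all others. Both arrays lay under each of the other 15 for 256 probe sets (0.774%), and no member was one of them. For 1449084_s_at this rests on the processing, since its deposited values on EB and ES (5.04 and 4.62) were below that on SU (5.08) and on all other arrays. After normalization EB, ES and SU were all at the floor. By percentile within its own array EB (9.67) stood above SU (9.30), so normalization by rank changed that order too. Low values recurred on arrays without E2: 1449084_s_at was at the floor on SU, and 1418460_at was at the floor on BI and BU, below its OVX + E2 values. Among the 256 probe sets the widest gaps were those of an unnamed probe set (1430097_at, 0.76), of Pcm1, a centrosome protein (0.75), of Kdm6a, a histone demethylase (0.63), and of 2 further unnamed probe sets.

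On form C, whose arrays had no E2, Sh3d19 and Tceanc2 were low as well. Probe set 1418662_at of Tceanc2 read 6.25 on BI, 6.99 on SI, 6.70 on BU and 7.33 on SU, and 8.15 to 9.26 on the 11 arrays of forms A and B without E2. Probe set 1449084_s_at of Sh3d19 read 7.61 on BI, 9.28 on SI, 8.29 on BU and the floor on SU, and 9.72 to 12.35 on those 11. Both sets of 4 lay under all 11 others, by gaps of 0.81 and 0.44, as did 1418461_at by 0.02 and 0.889% of all probe sets.

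**Figure D3:**
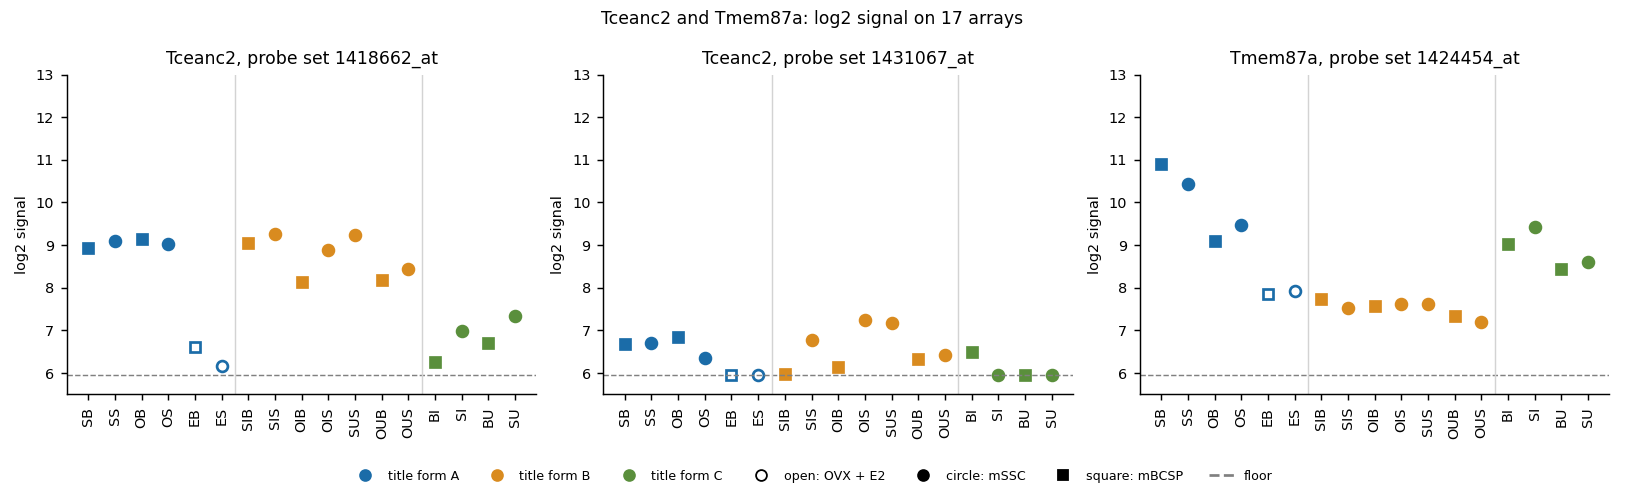
Log2 signal of Tceanc2 (2 probe sets) and Tmem87a (1 probe set) on each of the 17 arrays, ordered by title form (colour), with mSSC arrays as circles, mBCSP arrays as squares and OVX + E2 arrays open; the dashed line is the floor (5.95). 1418662_at is low on EB and ES and on the form C arrays (6.25 to 7.33), while Tmem87a is low on the 7 form B arrays (7.20 to 7.75).

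Form C was tested against forms A and B over the 15 arrays without E2, with injury and population as terms (limma). All 4 probe sets of Sh3d19 and 1418662_at of Tceanc2 were lower on form C, 5 of 6 tested probe sets, against 4.52% of all probe sets. The 4 belong to 1 gene and are not separate members: with 1 probe set a gene, 2 of 3 were called. The log2 fold change was -3.35 (SE 0.36, adjusted p = 0.000347) for 1449084_s_at and -1.98 (SE 0.24, adjusted p = 0.00105) for Tceanc2. It was -2.0 for 1418460_at, -1.28 for 1418461_at and -2.20 for 1427574_s_at, with adjusted p of 0.00418, 0.0100 and 0.0217. Tmem87a stood at 0.73 (SE 0.59, adjusted p = 0.455).

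The 4 form A arrays in that test were the high side of the contrast that chose the genes. Without SI and BI, the effect rests on BU and SU against the uninjured form B arrays, none of which took part in the E2 contrast. The fit had no term for ovary surgery. BU and SU are sham, while of those form B arrays SUS is sham and OUB and OUS are OVX. Form and ovary surgery are thus partly mixed there. Of 6 tested probe sets 2 were then called by limma: 1449084_s_at (-3.06, SE 0.44, adjusted p = 0.00180) and Tceanc2 (-1.53, SE 0.34, adjusted p = 0.0243). The other Sh3d19 probe sets then stood at -1.15, -0.74 and -1.02, with adjusted p from 0.0748 to 0.409. Without BU and SU all 5 were called, and without BI 1427574_s_at was not (-1.38, adjusted p = 0.0888).

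Levels of other cells were read on the same arrays. The means of macrophage, B cell, erythroid, endothelial and platelet genes on form C overlapped those on form B. For macrophage genes they were 9.46 to 11.63 on form C against 8.24 to 11.56 on form B. The mean of 8 neutrophil genes was 13.51 to 14.85 on form C, against 9.97 to 11.58 on the form A arrays without E2 and 11.68 to 14.66 on form B. On the uninjured arrays neutrophil means were 13.84 and 14.85 on SU and BU and 14.08 to 14.66 on form B, while skeletal means were 8.43 and 9.05 on SU and BU and 10.81 to 11.64 on form B. The 20th percentile of the deposited values, a measure of array background, was 6.29 on BI and 5.91 to 6.00 on the other form C arrays, against 5.81 to 6.12 on form B and 5.87 to 5.94 on the form A arrays without E2. The difference between 3′ and 5′ control probe sets of Gapdh, a sign of RNA quality, was 0.21 to 0.50 on form C, highest on SI. It was 0.16 to 0.32 on form B and 0.17 to 0.30 on the form A arrays without E2. Between 3′ and middle control probe sets of Actb it was 1.02 to 2.08 on form C, highest on BI. On form B this was 1.01 to 1.56 and on the form A arrays without E2 1.07 to 1.16. The part of these in the low values was not tested.

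**Figure D4:**
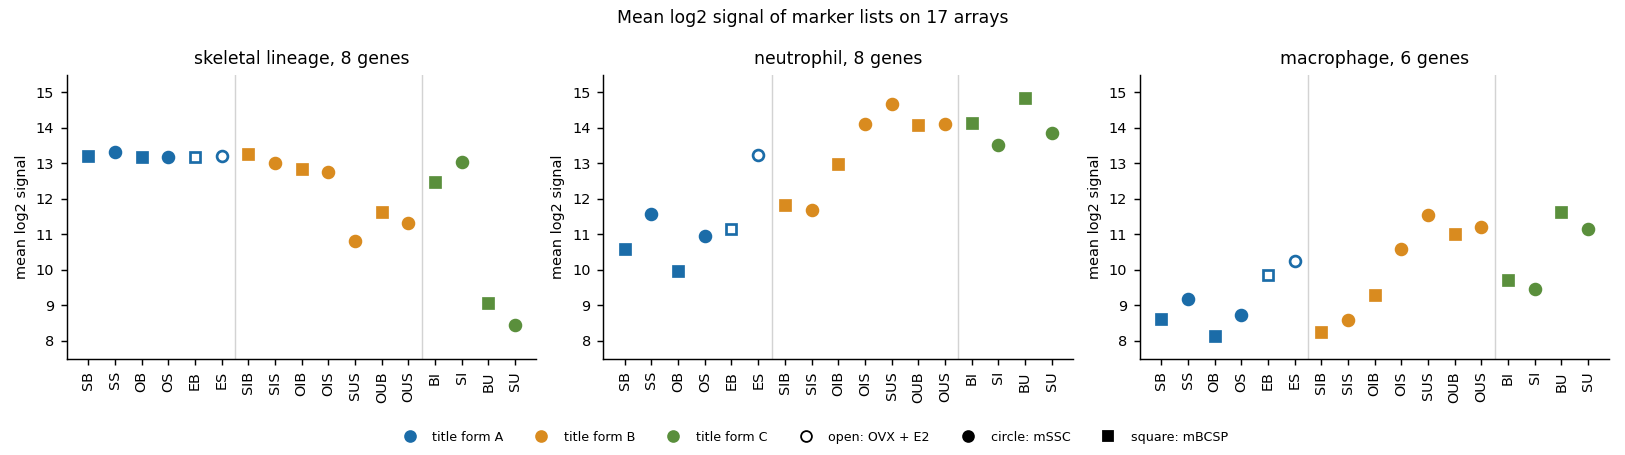
Mean log2 signal of 8 skeletal lineage, 8 neutrophil and 6 macrophage genes (panels) on each of the 17 arrays, ordered by title form (colour), with mSSC arrays as circles, mBCSP arrays as squares and OVX + E2 arrays open. Skeletal means are near 13 on form A and fall to 9.05 and 8.43 on BU and SU, and macrophage means are 9.86 and 10.25 on EB and ES against 8.14 to 9.19 on the rest of form A.

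The 20th percentile of the deposited values was 5.88 to 5.89 on EB and ES and 5.87 to 5.94 on the other 4, and the share of probe sets under the floor level was 20.9% to 21.1% against 20.2% to 21.1%. The difference between 3′ and 5′ control probe sets of Gapdh, a sign of RNA quality, was 0.25 to 0.29 against 0.17 to 0.30, and these ranges overlapped. Not overlapping were the difference between 3′ and middle control probe sets of Actb, 1.0 to 1.05 against 1.07 to 1.16, and the upper quartile of the deposited values, 9.69 to 9.71 against 9.61 to 9.68. Both OVX + E2 arrays lay above the other 4 for 6 of 6 macrophage genes, Ptprc, 2 of 3 B cell genes and 1 of 8 neutrophil genes. They did so for 0 of 8 skeletal, 2 erythroid, 5 endothelial and 3 platelet genes, and lay below for 1 skeletal gene. The share of all probe sets with both above was not counted. The part of these levels in the low values was not tested. The sort markers Itgav, Cd200 and Eng overlapped, with means of 10.60 to 10.96 against 10.57 to 11.13.

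Sh3d19 was higher in callus than in uninjured bone by 3 of its 4 probe sets. Within form B, 1449084_s_at read 12.17 on SIB, 12.35 on SIS, 11.91 on OIB and 11.76 on OIS, against 9.72 on SUS, 10.47 on OUB and 10.10 on OUS. Probe set 1427574_s_at read 11.25, 10.57, 9.41 and 9.40 in callus, against 6.86, 7.24 and 7.07. On form B the mean of callus arrays minus that of uninjured arrays was 1.38 to 3.10 over the 4 probe sets, all of 1 gene. On form C these differences were 0.30 to 1.48. Callus and uninjured arrays of form C overlapped for 3 of the 4, all but 1427574_s_at (8.73 and 6.33 against 5.95 and 6.15). For Tmem87a the same differences were 0.24 on form B and 0.71 on form C. The share of all probe sets with such differences was not counted.

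With terms for title form and population, sham callus minus sham uninjured bone was 4.22 (SE 0.74, limma adjusted p = 0.00455) for 1427574_s_at, 2.69 (SE 0.60, adjusted p = 0.0131) for 1418460_at and 1.95 (SE 0.41, adjusted p = 0.0104) for 1418461_at. For 1449084_s_at it was 2.44 (SE 0.85, adjusted p = 0.0752). Thus 3 of 6 tested probe sets were called, all higher and all of Sh3d19. Over all probe sets 9.65% were called higher and 17.7% in either direction. With 1 probe set a gene, 0 of 3 were called. The comparison rests on SUS as the only uninjured sham array of its form, and without SIS 1 of 6 was called.

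Tceanc2 and Tmem87a were not called in that comparison. Tceanc2 stood at 0.11 (SE 0.41, adjusted p = 0.902) and Tmem87a at 0.03 (SE 0.40, adjusted p = 0.976). Without the form term 1449084_s_at (4.12) and Tceanc2 (1.42) were also called. The mean of the 8 skeletal genes was 12.74 to 13.26 on callus and 10.81 to 11.64 on uninjured arrays of form B, alongside Sh3d19. Blood cell levels moved the other way, with Ptprc at 9.61 on SIB and 9.73 on SIS against 14.27 on SUS, the neutrophil mean at 11.82 and 11.68 against 14.66, and the mean of 2 erythroid genes at 9.21 and 9.45 against 12.95. The part of these in the Sh3d19 result was not tested.

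**Figure D5:**
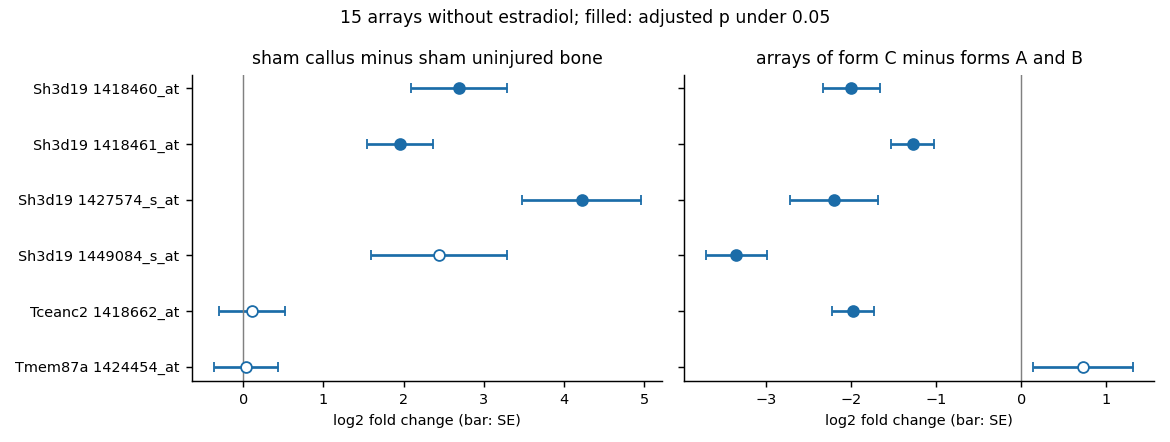
Log2 fold change with its SE (bars) for the 6 tested probe sets over the 15 arrays without estradiol, in sham callus against sham uninjured bone (left) and in form C against forms A and B (right); filled points had an adjusted p under 0.05. Sh3d19 is above 0 on the left and below 0 on the right, while Tmem87a stands at 0.03 and 0.73.

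Tmem87a was called neither in callus nor on form C. On form B it read 7.75 on SIB, 7.53 on SIS, 7.58 on OIB, 7.63 on OIS, 7.62 on SUS, 7.33 on OUB and 7.20 on OUS. On form C it read 9.02 on BI, 9.43 on SI, 8.43 on BU and 8.60 on SU. Every form B array lay under the 8 other arrays without E2 by a gap of 0.68, the widest among the 0.46% of probe sets with this pattern, which was noticed after the values were seen. The OVX + E2 values of Tmem87a (7.86 and 7.93) were close to those of form B callus and above all 7.

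Between OVX and sham mice no member was called. With the form term the callus comparison rests on SB, SS, OB and OS. Those arrays were the other side of the contrasts that chose the genes, so it is not independent of that choice. In callus Tmem87a stood at -1.38 (SE 0.32, unadjusted p = 0.00142 and adjusted p = 1 by limma), and at 0.13 without the form term, so its direction depended on that term; OIB and OIS, of conflicting labels, are not counted as OVX here. Limma called 0% of probe sets in this comparison, with 723 at an unadjusted p under 0.05. The comparison in uninjured bone, and with it the interaction, rests on OUB and OUS against SUS, the only uninjured sham array of its form. In uninjured bone the 6 members stood between -0.73 and 0.54, with 0.0363% of probe sets called, and for the interaction of OVX and injury 0 of 6 were called, with 0.00605% of probe sets called.

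Between mSSCs and mBCSPs no member was called either, and the 6 tested stood between -0.20 and 0.38. Tceanc2 was highest (0.38, SE 0.17, limma adjusted p = 0.665) and was higher in mSSCs in 6 of 7 pairs of arrays. For Sh3d19 the pairs went both ways, with mSSC higher in 2 to 5 of 7 pairs depending on the probe set. Limma called 0% of all probe sets, with 2494 at an unadjusted p under 0.05.

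The Sh3d19 probe sets moved together over the 15 arrays without E2, with Pearson correlations of 0.861 to 0.959 between pairs. Over the 10 callus arrays alone 1427574_s_at tracked the others less closely by rank, with a Spearman correlation of 0.515 with 1418461_at (Pearson 0.748), 0.661 with 1449084_s_at and 0.709 with 1418460_at. The Tceanc2 pair had 0.586, with the second probe set near the floor. These arrays share title form, injury and marker levels, and the correlations are a description.

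Genes most like each member were ranked by Pearson correlation, with 1 probe set a gene. Over the 17 arrays Sh3d19 was nearest to Tnfrsf22 (0.891), a decoy receptor of the TNF family, Stard6 (0.872), Tceanc2 (0.869), Tnfrsf23 (0.776) and Ptgs2 (0.759), the inducible cyclooxygenase. Tceanc2 was nearest to Sh3d19, Stard6 (0.779), Chd1 (0.751), Fbxo8 (0.729) and Tnfrsf22 (0.726). Sh3d19 and Tceanc2 were both chosen for low values on EB and ES, which are among the 17 arrays. Their nearness here is therefore not independent of that choice. Tmem87a was nearest to Bms1 (0.851), Cdkn2a (0.851), Gm1673 (0.831), Nefl (0.828) and Il13ra2 (0.822).

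Without the OVX + E2 arrays the order changed. Over 15 arrays Sh3d19 was nearest to Dynll2 (0.965), Serpina3n (0.955), Lats1 (0.952), Mlec (0.951) and Bag3 (0.948), and Tceanc2 to Stat3 (0.921), Thrap3 (0.910), Atp6v0a4 (0.895), Arih1 (0.888) and Fbxo8 (0.886). Tmem87a was nearest to Polb (0.917), Chgb (0.916), Sap30l (0.903), Ppil3 (0.900) and Adamts10 (0.897). Of the 5 nearest genes only Fbxo8, of Tceanc2, was in both orders.

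Genes related to Sh3d19 in function were taken from a list of 23 SH3 adaptors and ADAM proteases, 21 of them tested. With E2 none of the 21 was called against OVX or sham callus, with medians of 0.04 and 0.21. Since 0.00605% of all probe sets were called in each contrast, this count says little about the list. In sham callus against uninjured bone 5 were higher, Adam12 (6.28), a protease that SH3 adaptors bind, Sorbs2 (4.12), Sh3pxd2a (3.62), Sh3pxd2b (3.25) and Adam9 (1.88), and 3 were lower, Adam10 (-2.73), Adam19 (-2.29) and Itsn2 (-1.42). Over all probe sets 9.65% were called higher and 17.7% in either direction. On form C 4 were lower, Crkl (-1.91), Adam19 (-1.35), Adam15 (-1.23) and Adam17 (-0.75), with 4.52% of all probe sets called lower, and the list median was -0.66 against 0.04 over all probe sets.

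For Tceanc2 the list held 29 transcription elongation genes, 26 of them tested. With E2 none was called in either contrast, against 0.00605% of all probe sets in each, with medians of 0.07 and -0.02. In callus 1 of 26 was higher, Tcea3 (1.63), a TFIIS paralogue, against 9.65% of all probe sets, and on form C none was called, with a median of 0.14. Tceanc2 itself stood at -1.98 on form C.

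For Tmem87a the list held 22 genes, for GOLD-domain seven-pass proteins, Golgi proteins and transport, and Piezo1, a mechanosensitive channel of the cell surface, and 21 of them were tested. None was called with E2, against 0.00605% of all probe sets in each contrast, with medians of 0.01 and 0.05. In callus 4 were higher, Gpr180 (3.78), Piezo1 (2.52), Golgb1 (1.86) and Golph3 (1.01), and Vps26a (-1.51), a retromer subunit, was lower, 5 of 21 against 17.7% of all probe sets. On form C Golph3 (-0.86) and Tgoln1 (-0.97) were lower, 2 of 21 against 4.52%, while Tmem87a was not called.

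The genes next to each member on its chromosome were read for the same arrays. Beside Tmem87a lie Vps39, a subunit of the HOPS tethering complex, and Ganc, a glucosidase whose span overlaps that of Tmem87a. With E2 against OVX callus the Vps39 probe sets stood at -0.00 and 0.18 and those of Ganc at 0.10 and 0.14, against -1.39 for Tmem87a. Beside Tceanc2 lie Tmem59, whose 2 probe sets were at the floor on all 17 arrays, and Cdcp2. Beside Sh3d19 lie Gm27811 and Prss48, whose span overlaps that of Sh3d19. Cdcp2, Gm27811 and Prss48 had no probe set given to their symbol alone and could not be read.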

How the data were processed

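The authors deposited log2 signals of 17 Affymetrix mouse arrays, 1 column per array. Per the methods RNA was extracted, amplified in 2 rounds, read in dChip and normalized in Gene Expression Commons, while the submitters' processing notes name MAS5, so the tool behind the values is not settled. Linear values were quantile normalized between arrays, given a floor at the 20th percentile and returned to log2. The 64 control probe sets were dropped. The remaining probe sets that reached the 40th percentile on 2 or more arrays (33064) entered limma 3.58.1 in R 4.3.3 (lmFit, eBayes with trend), with terms for group, population and title form, over the 15 arrays without E2. Calls used a Benjamini-Hochberg adjusted p under 0.05. The fit was tested on simulated data. Of the probe sets 34945 carry 1 symbol, 932 several and 9160 none. The text names every member probe set, the 5 genes most alike, called members of each list, neighbours and the widest gaps. Members, lists and the arrays compared were chosen with earlier results of these data known. Tables and sequences were handled in Python 3.11.15 with pandas 2.3.3. The number of arrays limits the precision. Groups came from the labels. Alternatives changed the normalization, floor, filter, probe sets, form term, array grouping, moderation and test, or dropped 1 array at a time.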

Additional observations from a re-analysis of the deposited data

Results flagged for a closer look

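In the 4 sham callus arrays, 1 stood far from the others for 2 of 7 probe sets. Sh3d19 probe set 1418460_at read 10.16 on SIS and 9.33 to 9.43 on SB, SS and SIB, and the gap from SIS to the nearest was 0.876 of the range. Tceanc2 probe set 1431067_at read 5.98 on SIB, near the floor, and 6.69 to 6.78 on the others, a gap of 0.889 of the range. Chance flags about 1 in 20 groups, and 7 probe sets were examined here.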

How the results depend on the processing

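Of the 6 tested member probe sets, 3 (all of Sh3d19) were called in sham callus against uninjured bone and 5 (4 of them of Sh3d19) on form C. With 1 probe set a gene these counts were 0 and 2 of the 3 genes. Without the form term, or with form as a random block, 5 were called in callus. By the methods' t-test 3 were called on form C, and without SI and BI, an alternative chosen after seeing the data, 2. Leaving out 1 array at a time gave 1 to 4 in callus (1 without SIS) and 4 to 5 on form C. No population, OVX or interaction count of members left 0. Lower values with E2 were fixed by the choice of the genes; Tmem87a in OVX + E2 against sham callus ranged from -2.77 to -1.26 over the form settings. Small differences turned sign: Tmem87a in callus against uninjured bone was -0.0040 on the deposited values and between -0.095 and 0.20 with 1 array left out, Tceanc2 there was -0.063 with OIB and OIS counted as OVX, and Tmem87a in OVX against sham callus was 0.13 without the form term and by the methods' t-test. The probe sets lowest on both OVX + E2 arrays numbered 252 to 281 (256 as reported). Over all probe sets, calls ranged from 2609 to 13066 in callus and from 799 to 3794 on form C, from 2 to 317 for OVX in uninjured bone, 0 to 80 for the interaction, 0 to 12 for OVX in callus, and 0 to 13 and 0 to 12 for E2 against OVX and sham callus. The contrasts with sham uninjured bone could not be fitted without SUS. The labels give no replicate numbers that groups share; mSSC and mBCSP arrays were compared within group and title form, whose terms in the fit pair them. The number of arrays and signals near the floor limit what can be seen.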
